A study of Mus musculus with 10 samples.

Results

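The 34 genes described here code for the enzymes, transporters and regulators of glycolysis and pyruvate metabolism, from glucose uptake to the mitochondrial fate of pyruvate. They were chosen by symbol, and all 34 passed the filter, which asks for a normalised count of 10 or more in 5 or more of the 10 libraries. They stand among 17556 genes that passed and 31510 in the table. The 10 libraries came from dissected hippocampi of male APP/PS1 mice (stock 34832-JAX), which carry transgenes driven by a prion promoter and deposit amyloid. At 8 months of age, 5 mice were injected in the tail vein with AAV8-Irisin-FLAG, a virus coding for tagged irisin, and 5 with AAV8-GFP as the control. Tissue was collected 2 months later. All mice carried the APP/PS1 transgenes and all received an AAV8 vector, and no wild-type or uninjected mice were analysed here. Irisin is the secreted part of Fndc5, released by muscle in exercise, and the virus was given to make the liver its source. The comparison was of hippocampi after AAV8-irisin with those after AAV8-GFP, and no level of irisin in blood was available to it.

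Glycolysis turns glucose into pyruvate in the cytosol. Hexokinase and phosphofructokinase set the pace of its first steps, and the later enzymes yield ATP and NADH. Pyruvate is then either reduced to lactate, which monocarboxylate transporters carry across membranes, or taken into mitochondria and oxidised by the pyruvate dehydrogenase complex, which pyruvate dehydrogenase kinases switch off. In the brain, neurons and astrocytes express different isozymes of several of these steps, and lactate is exchanged between the cell types.

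Values are the authors' DESeq2 normalised counts, which are scaled to make libraries comparable and are not raw reads. Totals per library lay between 35284321 and 36623029. The 34 genes made up 1.17% ± 0.0301 of the total in the AAV8-GFP mice and 1.15% ± 0.0175 of it in the AAV8-irisin mice (SD, n = 5 each). The highest share was that of AAV8-GFP mouse 1, 1.23%, against 1.15% to 1.17% in the other AAV8-GFP mice. Neuronal and glial markers, which brain tissue should hold, were abundant. Snap25, of neurons, had 62127 ± 1886 and 62497 ± 746 normalised counts in the control and irisin groups, and Slc1a2, of astrocytes, had 86705 ± 9607 and 85464 ± 1762. Markers of hippocampal regions were not among the lists. AAV8-GFP mouse 1 stood apart. Across all tested genes it was the highest or lowest of the 10 libraries in 40.5%, against 14.8% to 23.4% for each of the other libraries. Where leaving it out turned a member's difference or reduced it by over 1.5 times, the value without it is given as well.

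No member passed the test between the groups. By limma with Benjamini-Hochberg adjustment over all 17556 genes, 0 of 34 members were called, as were 0% of all genes, and the adjusted p of every member was at least 0.942. An unadjusted p under 0.05 was reached by 2 members, against 4.49% of all tested genes. Both, Pfkl and Gpi1, were lower in AAV8-irisin, where 2.21% of all genes were lower at that p and 2.28% were higher. Of the 34 members, 22 had a lower mean log2 level in AAV8-irisin and 12 a higher one, where 49.5% of all tested genes had a lower mean. The median log2 difference was −0.017 over the members and 0.00099 over all genes tested. The members' median was −0.0090 with AAV8-irisin mouse 4 left out, with 20 lower means and 14 higher ones. Leaving out AAV8-GFP mouse 1 gave −0.010 and AAV8-irisin mouse 3 −0.026, and quantile normalisation gave −0.0079. The differences could be bounded closely. For 33 of 34 members the 95% interval lay within 1.25-fold in either direction, against 65.2% of all genes tested, and for 22 it lay within 1.1-fold, against 21% of all genes. Slc16a7, whose interval reached 1.36-fold, was the exception. The genes tested as a whole were not matched to the members for level. These are levels in bulk tissue, where fewer cells of a type and less RNA per cell cannot be told apart.

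**Figure D1:**
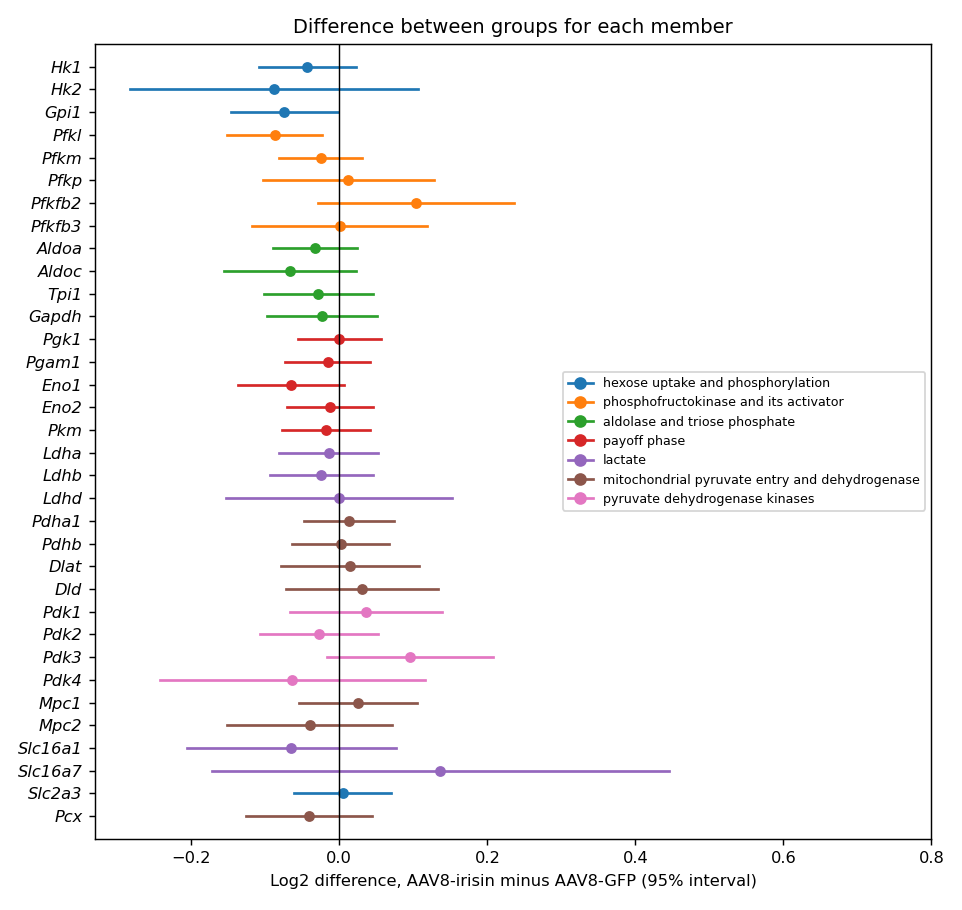
Log2 difference between AAV8-irisin and AAV8-GFP (x axis, with 95% intervals from limma) for each of the 34 members (y axis), coloured by role in the pathway. Points lie between −0.088 for Hk2 and 0.14 for Slc16a7, and only the intervals of Pfkl and Gpi1 leave out 0, before adjustment.

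Promoter letters were not used to choose the members. The core letters bound by hypoxia-inducible factors, ACGTG or GCGTG on either strand, were searched in the 250 bases before each start in the RefSeq promoter table (build GRCm38.p6), which held 50 starts for 32 of the 34 genes. They occurred at 37 starts, or 74.0%, against 38.6% of all 32851 starts. By gene, 27 of the 32 had a match at 1 or more starts. The share by gene was not computed for all genes, and a gene with more starts has more chances of a match. Starts of 1 gene can overlap and were counted separately, and no enrichment was tested. The E-box CACGTG, which contains the first core on both strands, stood at 8 of 50 starts, or 16%, against 6.02%. The letters GGGCGG were found at 24 starts, or 48.0%, against 32.7%, and TATAAA at 1 start, or 2.00%, against 12.4%. The windows of members also held more CG pairs, with a median of 14 against 6, and the part of this in the core counts was not tested. A match describes the letters and does not show a binding site. Below are 3 promoters, with the core matches in capitals, 5′ to 3′ on the gene's strand and without bases inside annotated exons. Ldha is shown for having the most matches at 1 start, Pfkl because its groups did not overlap, and Pdk3 because 4 of 5 AAV8-irisin mice lay above every control.
Ldha, chr7:46845554-46845803, plus strand: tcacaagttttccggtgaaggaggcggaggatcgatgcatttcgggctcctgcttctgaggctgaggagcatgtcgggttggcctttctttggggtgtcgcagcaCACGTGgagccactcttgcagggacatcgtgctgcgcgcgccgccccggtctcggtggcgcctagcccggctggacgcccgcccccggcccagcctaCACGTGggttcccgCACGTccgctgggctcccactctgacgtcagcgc
Pfkl, chr10:78009808-78010004, minus strand: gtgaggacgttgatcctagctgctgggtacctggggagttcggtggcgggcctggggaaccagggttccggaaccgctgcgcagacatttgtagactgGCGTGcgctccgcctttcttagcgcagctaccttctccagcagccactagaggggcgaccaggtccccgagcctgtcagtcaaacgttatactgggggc
Pdk3, chrX:93832202-93832400, minus strand: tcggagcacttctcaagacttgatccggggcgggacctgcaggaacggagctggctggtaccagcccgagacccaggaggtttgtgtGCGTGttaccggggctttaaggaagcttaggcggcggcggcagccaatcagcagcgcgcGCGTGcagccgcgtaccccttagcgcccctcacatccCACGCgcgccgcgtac
In the Ldha stretch 5 matches merge into 3 runs of capitals, because each of its 2 E-boxes is read on both strands. The Pfkl stretch has 1 match and the Pdk3 stretch has 3 of the 4 in its full window. The Ldha and Pfkl stretches lie before a RefSeq start but inside the gene bounds of GENCODE M21, whose outermost start is further upstream. Slc16a7 and Slc2a3 had no entry in the table.

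Per kilobase of annotated exon, the members spanned a wide range of levels in the hippocampus. The top 5 were Aldoa, Gapdh, Pkm, Pgam1 and Aldoc. Aldoa, the muscle and brain aldolase, had 20132 ± 449 normalised counts per kilobase (mean ± SD over 10 libraries), followed by Gapdh with 14306 ± 548. Next came Pkm, pyruvate kinase, with 9185 ± 211 per kilobase. Pgam1, phosphoglycerate mutase, had 7915 ± 149.7. Between them and the next group, Aldoc, the aldolase of astrocytes, had 7192 ± 398 per kilobase. Eno2, Tpi1, Ldhb, Pgk1 and Eno1 formed a run from 5844 down to 5154 per kilobase, and the neighbours Eno2 and Tpi1 differed by less than the spread between libraries. At the bottom were Hk2 with 55.7 ± 5.63, Ldhd, the D-lactate dehydrogenase, with 69.7 ± 4.54, and Pdk4 with 80.8 ± 6.83 per kilobase. Lengths are the union of all annotated exons, so a gene with long rarely used exons reads lower.

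**Figure D2:**
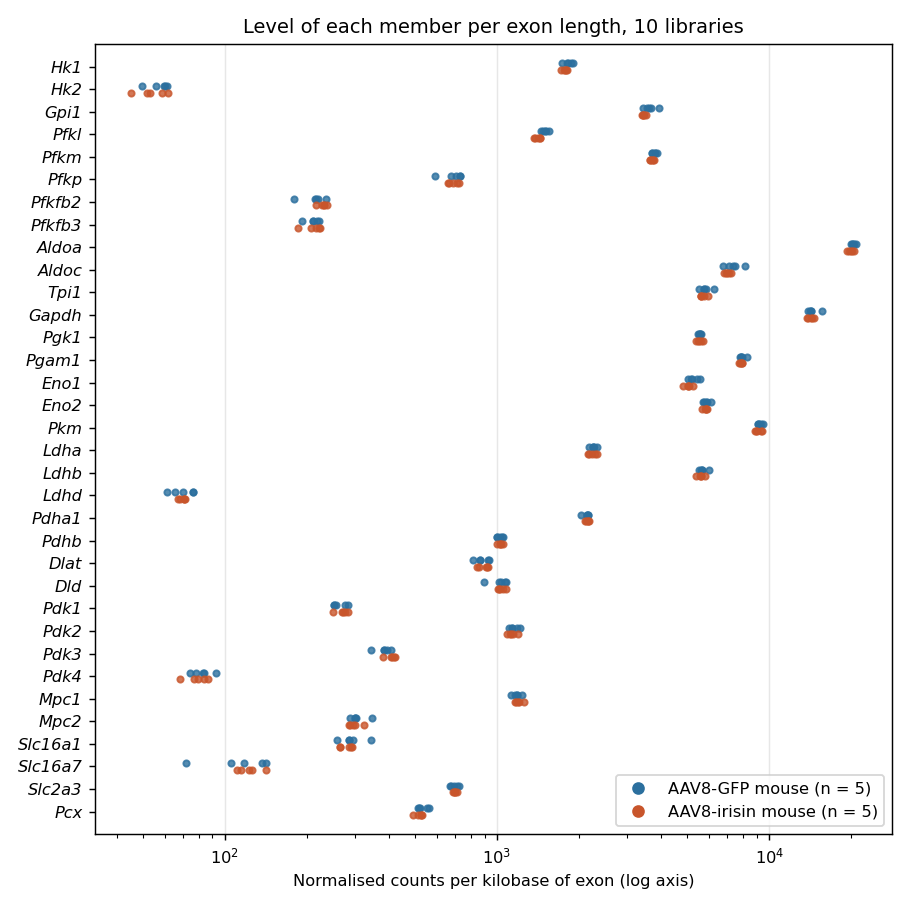
Normalised counts per kilobase of exon (log x axis) for each member (y axis) in each of the 10 mice, blue for AAV8-GFP and orange for AAV8-irisin. The rows run from about 55.7 for Hk2 to 20132 for Aldoa, and the blue and orange points of a row lie close together relative to that range.

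The members varied little between mice. The median coefficient of variation over the 10 libraries was 3.94% for the members and 8.48% for all genes tested, which were not matched for level. Pgk1, phosphoglycerate kinase, was the steadiest at 1.48%, and Pfkm followed at 1.78%. Slc16a7 varied most at 17.4%, then Hk2 at 10.1%, Pdk4 at 8.46% and Slc16a1 at 8.26%.

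Glucose entry and the hexose steps held 1 member with a higher mean and 3 with a lower one, with 0 called. Slc2a3, the neuronal glucose transporter GLUT3, had 5042 ± 150.5 and 5057 ± 62.5 normalised counts in AAV8-GFP and AAV8-irisin (mean ± SD, n = 5 each; paired means below keep this order). Its log2 difference of 0.0046 had a 95% interval of −0.061 to 0.070. Hk1, the main brain hexokinase, which binds mitochondria, had 15583 ± 548 and 15119 ± 297 and a log2 difference of −0.043, where a range in brackets after a difference is the 95% interval (−0.11 to 0.023). Hk2, an inducible hexokinase, had 366, 357, 359, 296 and 334 normalised counts in AAV8-GFP mice 1 to 5 and 369.9, 349.6, 316, 270.3 and 308 in AAV8-irisin mice 1 to 5. Its groups overlapped across nearly the whole range, and its lowest value was in AAV8-irisin mouse 4. The log2 difference of Hk2 was −0.088 (−0.28 to 0.11), and −0.027 without that mouse. Gpi1, the isomerase that converts glucose 6-phosphate to fructose 6-phosphate (ENSMUSG00000036427.5, chromosome 7, 34201330 to 34230336, minus strand, mm10), had 25282, 22129, 23652, 23343 and 22959 normalised counts in AAV8-GFP mice 1 to 5 and 21938, 22187, 22746, 22185 and 22301 in AAV8-irisin mice 1 to 5. AAV8-GFP mouse 1 was the highest and AAV8-GFP mouse 2 lay among the AAV8-irisin mice, so the groups overlapped. The log2 difference of Gpi1 was −0.075 (−0.15 to −0.0024; adjusted p = 0.942 by limma). It was −0.047 without AAV8-GFP mouse 1.

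Phosphofructokinase, the committed step, held the member with the clearest separation. Pfkl, the liver-type subunit (ENSMUSG00000020277.10, chromosome 10, 77986947 to 78010083, minus strand, mm10), had 9803, 9700, 10323, 10075 and 10009 normalised counts in AAV8-GFP mice 1 to 5 and 9234, 9625, 9628, 9407 and 9086 in AAV8-irisin mice 1 to 5. Every AAV8-irisin mouse was below every AAV8-GFP mouse. No other member had groups that did not overlap, so this was 1 of 34, and 0.803% of all genes tested, or 141, also had groups that did not overlap. Group means were 9982 ± 243 and 9396 ± 239. The log2 difference was −0.087 ± 0.030 (standard error), which is 0.941-fold, and its interval ran from −0.15 to −0.023. The unadjusted p of limma was 0.0109 and the adjusted p 0.942, so Pfkl did not pass. Leaving out each mouse in turn gave −0.098 to −0.075.

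The other subunits of the enzyme had groups that overlapped. Pfkm, the muscle-type subunit, had 12616 ± 209 and 12399 ± 194 and a log2 difference of −0.025 (−0.081 to 0.031). Pfkp, the platelet-type subunit, had 7896, 9823, 9476, 9097 and 9766 normalised counts in AAV8-GFP mice 1 to 5 and 9237, 9731, 8949, 9570 and 8841 in AAV8-irisin mice 1 to 5. Its lowest value was AAV8-GFP mouse 1, and the log2 difference of 0.012 became −0.043 without that mouse. Whether Pfkl differed from the other subunits in its change was not tested. Pfkfb2 and Pfkfb3 make fructose 2,6-bisphosphate, the activator of phosphofructokinase. Pfkfb2 had 1307, 1559, 1713, 1597 and 1568 normalised counts in AAV8-GFP mice 1 to 5 and 1676, 1682, 1561, 1726 and 1649 in AAV8-irisin mice 1 to 5. AAV8-GFP mouse 1 was far below the other 9 mice, which overlapped, and the log2 difference of 0.10 (−0.028 to 0.24) fell to 0.044 without it. Pfkfb3 had nearly equal means, 1590 ± 83.6 and 1592 ± 113 (0.00031, −0.12 to 0.12).

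The 4 members of the aldolase and triose phosphate steps all had lower means in AAV8-irisin, and 0 of 4 were called. Aldoc had 24373, 22134, 26525, 23170 and 23945 normalised counts in AAV8-GFP mice 1 to 5 and 22545, 23273, 23640, 22198 and 22873 in AAV8-irisin mice 1 to 5. The AAV8-irisin values lay inside the range of the AAV8-GFP values, whose highest was mouse 3. Its log2 difference was −0.067 (−0.16 to 0.023), and −0.031 without AAV8-GFP mouse 3. Aldoa had 59267 ± 955 and 57940 ± 1355 and a log2 difference of −0.033, and Tpi1, triose phosphate isomerase, had 16041 ± 713 and 15722 ± 446 and −0.028. Tpi1 had −0.0033 without AAV8-GFP mouse 1, and Aldoa had −0.021 with AAV8-irisin mouse 4 left out. Gapdh, the dehydrogenase that makes NADH and a usual reference gene, had 59621 ± 2954 and 58636 ± 1489 and −0.023 (−0.097 to 0.051), which was 0.0071 without AAV8-GFP mouse 1.

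The enzymes of the payoff phase, the energy-yielding steps, had means close together. All 5 had a lower mean log2 level in AAV8-irisin, with 0 called, though Eno2 and Pkm turned higher with quantile normalisation and the linear means of Pgk1 were nearly equal. Eno1, the enolase of glia and most tissues, had 29848, 27653, 29314, 27063 and 27925 normalised counts in AAV8-GFP mice 1 to 5 and 27320, 27001, 28168, 25995 and 26949 in AAV8-irisin mice 1 to 5. AAV8-irisin mouse 4 was the lowest and AAV8-GFP mice 1 and 3 the highest, and the groups overlapped between 27063 and 28168. Its log2 difference was −0.066 (−0.14 to 0.0057; adjusted p = 0.942 by limma). Eno2, the neuronal enolase, had 27621 ± 732 and 27371 ± 434 and a log2 difference of −0.013 (−0.071 to 0.046). Pgk1 had 12437 ± 96.2 and 12438 ± 259, with an interval of −0.056 to 0.056. Pgam1 had 15774 ± 389 and 15599 ± 165 and −0.016, which was −0.00034 without AAV8-GFP mouse 1. Pkm, whose value adds the M1 and M2 splice forms, had 46213 ± 918 and 45653 ± 1208 and −0.018 (−0.077 to 0.041), which was −0.0078 without AAV8-GFP mouse 1. With AAV8-irisin mouse 4 left out, Eno2 had −0.0038, Pkm −0.0085 and Pgam1 −0.010.

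**Figure D3:**
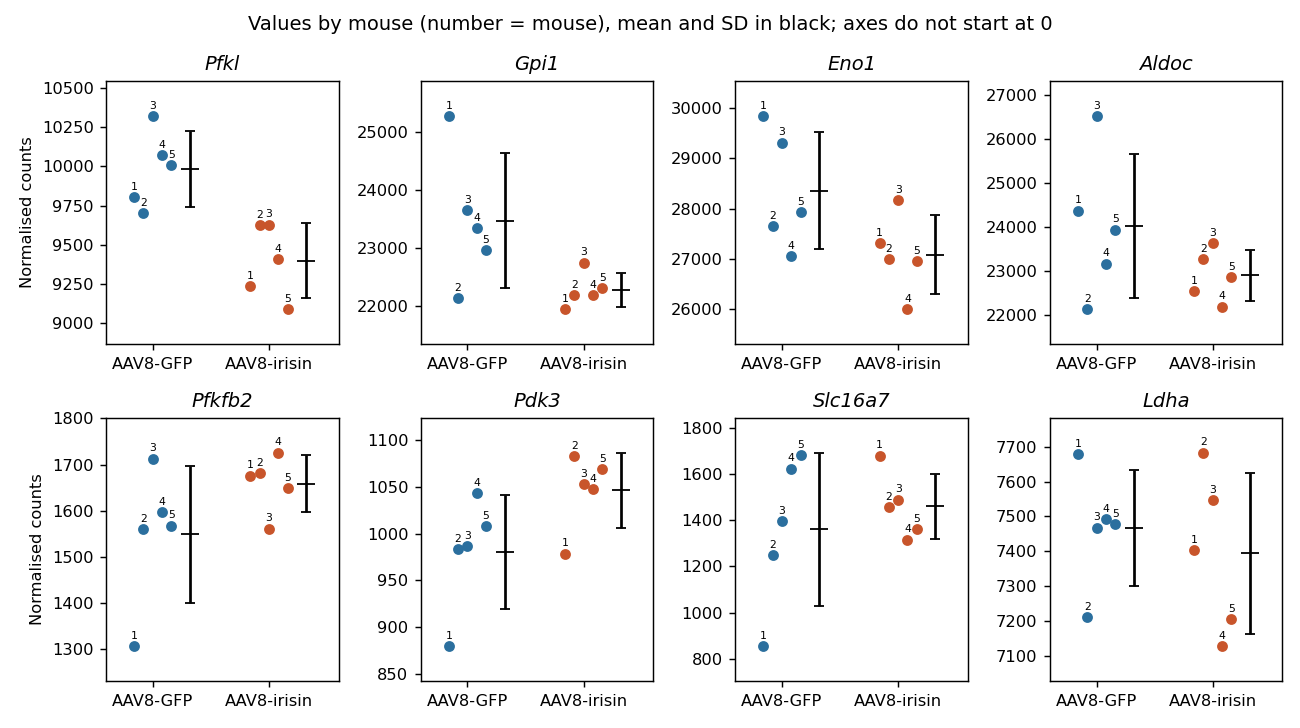
Normalised counts (y axes, which do not start at 0) of 8 members in each mouse, numbered within its group, with the mean and SD in black. Pfkl has no overlap between the groups, while Pfkfb2, Pdk3 and Slc16a7 each have AAV8-GFP mouse 1 as their lowest point.

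Among the genes of lactate, Ldha, which favours lactate production, had 7679, 7212, 7468, 7493 and 7478 normalised counts in AAV8-GFP mice 1 to 5 and 7405, 7683, 7547, 7129 and 7207 in AAV8-irisin mice 1 to 5. The highest 2 values came from 1 mouse of each group, and AAV8-irisin mice 4 and 5 were the lowest. The log2 difference of Ldha was −0.014 (−0.081 to 0.053). It was −0.0040 without AAV8-GFP mouse 1 and −0.0012 without AAV8-irisin mouse 4. Ldhb, which favours the reverse reaction, had 8926 ± 289 and 8776 ± 261 and −0.024 (−0.094 to 0.045), against −0.0049 and −0.0095 without the same mice. Ldhd had 372 ± 35.0 and 371 ± 9.59, and its log2 difference of −0.00021 was 0.033 without AAV8-GFP mouse 1. Slc16a1, the transporter MCT1 of endothelium and glia, had 1305, 1517, 1263, 1141 and 1269 normalised counts in AAV8-GFP mice 1 to 5 and 1294, 1288, 1172, 1264 and 1174 in AAV8-irisin mice 1 to 5. AAV8-GFP mice held both its highest value, in mouse 2, and its lowest, in mouse 4. Its log2 difference was −0.065 (−0.21 to 0.076), which was −0.0072 without AAV8-GFP mouse 2 and −0.11 without AAV8-GFP mouse 4. Slc16a7, the neuronal transporter MCT2 (ENSMUSG00000020102.15, chromosome 10, 125219270 to 125389465, minus strand, mm10), had 855, 1250, 1396, 1623 and 1680 normalised counts in AAV8-GFP mice 1 to 5 and 1680, 1458, 1489, 1316 and 1362 in AAV8-irisin mice 1 to 5. AAV8-GFP mouse 1 was far below the other 9 mice, and AAV8-GFP mouse 5 and AAV8-irisin mouse 1 shared the top. Its log2 difference was 0.14 (−0.17 to 0.45; adjusted p = 0.945 by limma), which turned to −0.021 without AAV8-GFP mouse 1.

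The mitochondrial carrier and the dehydrogenase complex held 5 higher and 2 lower means, with 0 of 7 called. Pdha1 and Pdhb, the subunits of the first enzyme of the complex, had 7940 ± 194 and 8009 ± 99.0 for Pdha1 and 3953 ± 86.6 and 3958 ± 72.3 for Pdhb. Their log2 differences were 0.013 (−0.048 to 0.073) and 0.0018 (−0.064 to 0.068), and Pdhb turned lower with quantile normalisation. Without AAV8-GFP mouse 1 both turned lower, to −0.0027 for Pdha1 and −0.0066 for Pdhb. Dlat, the acetyltransferase, had 4308 ± 242 and 4347 ± 178, and Dld, the dihydrolipoamide dehydrogenase, had 3742 ± 270.2 and 3815 ± 105. The log2 differences were 0.014 and 0.031. Both were lowest in AAV8-GFP mouse 1, and both turned lower without it, to −0.014 for Dlat and −0.015 for Dld. Mpc1 and Mpc2 together form the carrier that takes pyruvate into mitochondria. Mpc1 had 2452 ± 79.8 and 2496 ± 80.9 (0.025). Mpc2 had 2546, 2202, 2120, 2223 and 2211 normalised counts in AAV8-GFP mice 1 to 5 and 2214, 2172, 2383, 2117 and 2097 in AAV8-irisin mice 1 to 5. Apart from AAV8-GFP mouse 1, which was the highest, the groups overlapped, and the log2 difference of −0.040 was 0.0035 without that mouse. Mpc1 and Mpc2 thus differed in the sign of their means, while the interval of each reached both sides of 0 (−0.055 to 0.11 for Mpc1 and −0.15 to 0.072 for Mpc2). Pcx, pyruvate carboxylase, which refills the citric acid cycle and is an astrocyte enzyme in brain, had 2531 ± 111 and 2459 ± 76.1 and −0.041 (−0.13 to 0.044). Leaving out each mouse gave −0.056 to −0.021 for Pcx and 0.0073 to 0.042 for Mpc1, the latter highest without AAV8-GFP mouse 1.

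Of the kinases that inactivate the dehydrogenase complex, 2 had higher and 2 lower means, and 0 of 4 were called. Pdk3 (ENSMUSG00000035232.8, chromosome X, 93764607 to 93832201, minus strand, mm10) had 879.8, 984, 986, 1043 and 1008 normalised counts in AAV8-GFP mice 1 to 5 and 979, 1083, 1053, 1048 and 1069 in AAV8-irisin mice 1 to 5. AAV8-irisin mice 2 to 5 were above every AAV8-GFP mouse, and AAV8-irisin mouse 1 lay below all AAV8-GFP mice but mouse 1. Its log2 difference was 0.096 (−0.017 to 0.21; adjusted p = 0.942 by limma). Without AAV8-GFP mouse 1 it was 0.057. Pdk1, a target of hypoxia-inducible factor, had 2048 ± 118 and 2099 ± 98.6 (0.036, and 0.019 without AAV8-GFP mouse 1). Pdk2, the kinase with the highest level per kilobase of the 4, had 3654 ± 133 and 3585 ± 123 (−0.027). Leaving out each mouse gave 0.018 to 0.064 for Pdk1 and −0.045 to −0.0095 for Pdk2. Pdk4, a kinase induced by fasting, had 276, 326, 293, 292 and 261 normalised counts in AAV8-GFP mice 1 to 5 and 304, 294, 279, 239.8 and 270.0 in AAV8-irisin mice 1 to 5. Its highest value was in AAV8-GFP mouse 2 and its lowest in AAV8-irisin mouse 4, with the rest mixed. The log2 difference of Pdk4 was −0.063 (−0.24 to 0.12), which was −0.020 without AAV8-GFP mouse 2 and −0.012 without AAV8-irisin mouse 4.

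Ratios of isozymes within a library do not depend on how libraries were scaled. None of the 6 ratios differed between groups by an exact two-sided permutation test over all 252 assignments, whose smallest possible p is 0.00794. Each adjusted p was 0.675 over the 6 ratios. Ldha to Ldhb was 0.815, 0.811, 0.862, 0.845 and 0.852 in AAV8-GFP mice 1 to 5 and 0.849, 0.874, 0.825, 0.847 and 0.819 in AAV8-irisin mice 1 to 5. The 2 groups covered largely the same range, with a log2 difference of 0.010 (exact permutation p = 0.675) that was 0.00090 without AAV8-GFP mouse 1. Slc16a1 to Slc16a7 was 1.53, 1.21, 0.905, 0.703 and 0.755 in AAV8-GFP mice 1 to 5 and 0.770, 0.883, 0.787, 0.961 and 0.862 in AAV8-irisin mice 1 to 5. AAV8-GFP mice 1 and 2 were above every AAV8-irisin mouse and AAV8-GFP mice 4 and 5 below them all (log2 difference −0.20, exact permutation p = 0.405). Without AAV8-GFP mouse 1 the log2 difference was −0.040, and without AAV8-GFP mouse 4 it was −0.32.

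Aldoc to Aldoa, an astrocyte aldolase against the general one, was 0.401, 0.375, 0.451, 0.389 and 0.411 in AAV8-GFP mice 1 to 5 and 0.394, 0.397, 0.397, 0.396 and 0.392 in AAV8-irisin mice 1 to 5. The 5 AAV8-irisin mice lay in a narrow band inside the AAV8-GFP range. Means were 0.406 ± 0.0290 and 0.395 ± 0.00214 (exact permutation p = 0.603), and the log2 difference of −0.034 was 0.0053 without AAV8-GFP mouse 3. Eno1 to Eno2 was 1.03 ± 0.0618 and 0.990 ± 0.0222, a log2 difference of −0.053 (exact permutation p = 0.262). With each mouse left out it ran from −0.083 to −0.029. Hk2 to Hk1 was 0.0220 ± 0.00213 and 0.0214 ± 0.00249, and Pfkp to Pfkm was 0.730 ± 0.0662 and 0.748 ± 0.0396. Their exact permutation p-values were 0.643 and 0.667. The log2 difference of Hk2 to Hk1 was −0.045, which was −0.00074 with AAV8-GFP mouse 1 left out. The Pfkp to Pfkm ratio was lowest in AAV8-GFP mouse 1, at 0.622, and its log2 difference of 0.037 was −0.020 without that mouse.

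**Figure D4:**
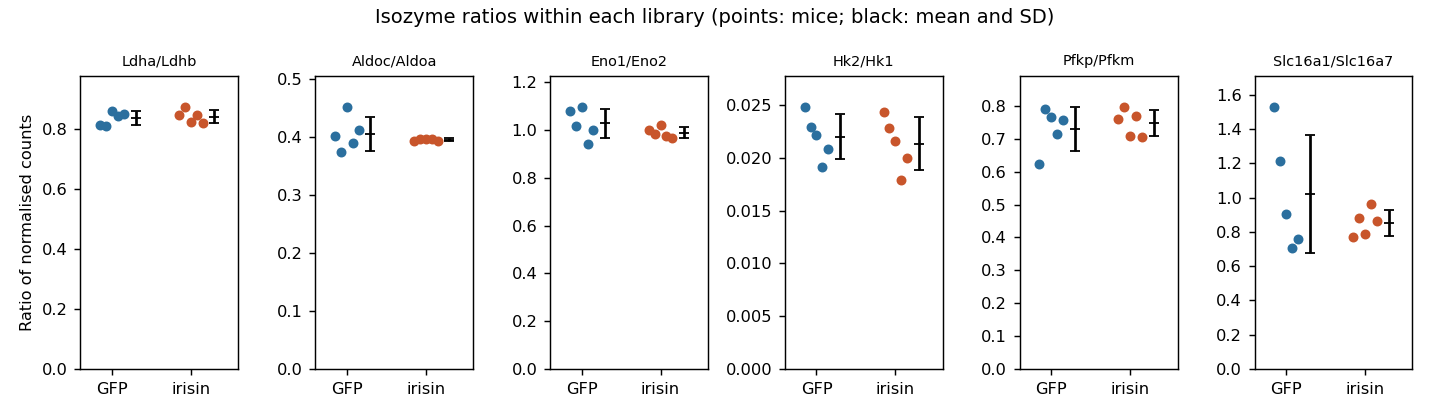
Ratio of the normalised counts of 2 isozymes (y axes, from 0) in each mouse of AAV8-GFP and AAV8-irisin, with the mean and SD in black. The AAV8-irisin points of Aldoc/Aldoa lie in a narrow band around 0.395, and the highest Slc16a1/Slc16a7 point is AAV8-GFP mouse 1.

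Single mice held many of the extreme values. AAV8-GFP mouse 1 held the highest value of the 10 libraries in 10 members and the lowest in 7, so it was at an extreme in 17 of 34, where it was at one in 40.5% of all genes tested. It was highest in Aldoa, Gapdh, Tpi1, Pgam1, Eno1, Pkm, Gpi1, Ldhb, Ldhd and Mpc2, most of them enzymes of the cytosolic route. It was lowest in Pfkp, Pfkfb2, Slc16a7, Pdha1, Dlat, Dld and Pdk3, of which Pdha1, Dlat and Dld belong to the dehydrogenase complex. Against the mean of the other AAV8-GFP mice, its largest log2 drops were in Slc16a7 (−0.79), Pfkfb2 (−0.30) and Pfkp (−0.27). Its largest rise was in Mpc2 of the mitochondrial carrier (0.22), so the extremes did not divide by mitochondrial role. Gapdh was 64760 there against 57201 to 59054 in the other 4 AAV8-GFP mice, and Dld was 3290 against 3733 to 3958. AAV8-irisin mouse 4 held the lowest value in 12 members, among them Aldoa, Gapdh, Pgk1, Pgam1, Eno1, Eno2, Pkm, Ldha and Ldhb, and the highest in 1, so 13 of 34, where it was at an extreme in 20% of all genes tested. Its Pkm was 44475 against 44700 to 47188 in the other AAV8-irisin mice.

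**Figure D5:**
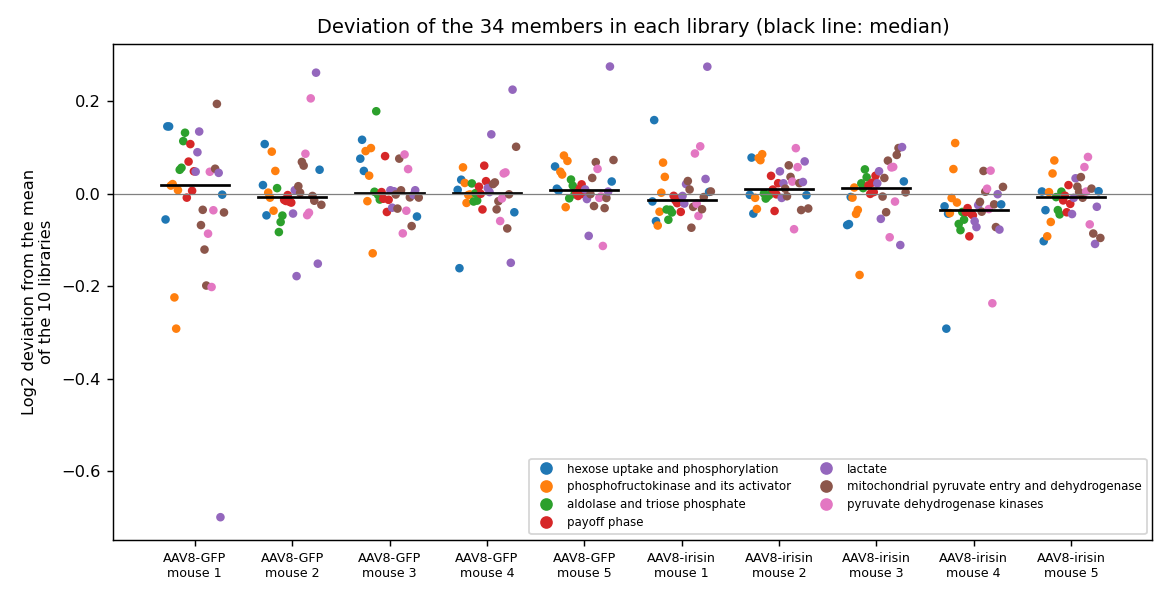
Log2 deviation of each member from its mean over the 10 libraries (y axis) in each mouse (x axis), coloured by role, with the median as a black line. AAV8-GFP mouse 1 has the widest scatter, down to Slc16a7, and most points of AAV8-irisin mouse 4 lie below 0.

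AAV8-GFP mouse 1 also stood apart in features of the whole library. For each library, the log2 deviation of every gene from the other mice of its group was set against gene properties. In AAV8-GFP mouse 1 it had a rank correlation over 17330 genes of −0.304 with exon length and 0.358 with the GC share of the longest transcript, a description across genes of 1 library, which are not independent. The corresponding values of the other libraries ran from −0.234 to 0.182 for length and from −0.230 to 0.121 for GC. Over the 34 members alone the length correlation was −0.273 in AAV8-GFP mouse 1. It was 0.472 in AAV8-irisin mouse 1 and −0.408 in AAV8-irisin mouse 3, so AAV8-GFP mouse 1 was not the furthest from 0. In AAV8-GFP mouse 1 the 10 neuronal markers summed to 262369, against 273019 to 287933 in the other 9 libraries. That was the lowest sum, as was its sum of the 10 astrocyte markers. The part of these features in the member values was not tested. Without AAV8-GFP mouse 1, 25 of 34 members had a lower mean in AAV8-irisin, where 50.2% of all genes did, and the median log2 difference of the members was −0.010.

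The spread within groups moved with the same mouse. In 26 of 34 members the SD of log2 values was smaller in AAV8-irisin than in AAV8-GFP, as in 62.9% of all genes tested. Without AAV8-GFP mouse 1 it was smaller in 17 of 34, and in 50.1% of all genes.

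Of 7 lists of cell type markers, none held a called gene, and the summed level of each list overlapped between the groups. By limma, 3 of 7 tested choroid plexus genes and 3 of 5 red cell genes had an unadjusted p under 0.05. The share of all genes tested was 4.49%, and no gene of the other lists reached it. The 10 astrocyte markers summed to 187329 to 231611 in AAV8-GFP and 196382 to 204281 in AAV8-irisin, with 8 lower and 2 higher means (median log2 difference −0.030). The 10 neuronal markers summed to 262369 to 287933 in AAV8-GFP and 273019 to 281532 in AAV8-irisin, with 6 higher and 4 lower means (median 0.0087). All 9 oligodendrocyte markers had higher means (median 0.11; sums of 105741 to 141432 in AAV8-GFP and 122732 to 146917 in AAV8-irisin), and all 9 microglial markers lower ones (median −0.094; sums of 15807 to 21090 in AAV8-GFP and 14923 to 18659 in AAV8-irisin). Endothelial markers, which bear on Slc16a1, summed to 6485 to 8637 in AAV8-GFP and 6149 to 7580 in AAV8-irisin (median −0.041). Of 5 red cell genes, all had lower means (median −0.65), with sums of 1586 to 4502 in AAV8-GFP and 1669 to 3211 in AAV8-irisin. Hbb-bs had 1258 ± 503 and 832 ± 251 and Hba-a2 1079 ± 405 and 662 ± 226. All 7 tested choroid plexus genes had higher means (median 0.49), with sums of 863 to 1131 in AAV8-GFP and 1116 to 2916 in AAV8-irisin. Only AAV8-irisin mouse 2, at 1116, lay below the highest AAV8-GFP sum. The top sum was that of AAV8-irisin mouse 4, the mouse that was lowest in 12 members. Kl, the most abundant choroid plexus gene of the list, had 805 ± 89.8 and 867 ± 58.3. Ttr, transthyretin, abundant in the choroid plexus, had 29.5 ± 18.0 and 369 ± 650.2, with 1528 in AAV8-irisin mouse 4 and 12.3 to 162 in the other 4 AAV8-irisin mice. No marker was at 0 in any library. The part of these cell types in the member values was not tested.

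The neighbouring pathways gave 0 calls in 9 lists. Of 20 tested further glycolytic enzymes, 12 had lower and 8 higher means (median −0.039). The smallest unadjusted p of this list was that of Pgam2, the muscle phosphoglycerate mutase, with 268 ± 18.0 and 229 ± 21.6 and a log2 difference of −0.23 (adjusted p = 0.942 by limma). Galm, a mutarotase, had 90.8 ± 13.3 and 77.9 ± 15.0. Of 16 glucose and lactate transporters and their partners, 11 had lower means (median −0.056). Bsg, the chaperone of monocarboxylate transporters, had 12180 ± 589 and 11557 ± 503, and Slc2a6 had 969 ± 39.9 and 906 ± 24.0. Among 15 further genes of pyruvate metabolism, 9 were higher and 6 lower (median 0.0069). Pdp2, a phosphatase that reactivates the dehydrogenase complex, had 399 ± 30.8 and 438 ± 31.4 (0.13), and Pck2 had 1284 ± 118 and 1172 ± 74.9 (−0.13).

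Downstream of pyruvate, 11 of 18 genes of the tricarboxylic acid cycle had higher and 7 lower means (median 0.0097). Sdhb, a subunit of succinate dehydrogenase, had 3147 ± 61.8 and 3231 ± 75.8 (0.038). Of 10 shuttle genes, 7 were higher (median 0.018), with 0.046 for Gpd1l and −0.046 for Mdh2. Of 8 pentose phosphate genes, 6 were lower (median −0.019), with −0.087 for Rpe and 0.11 for H6pd. Among 17 glycogen genes 10 were lower (median −0.018). Ppp1r3c, which targets a phosphatase to glycogen, had 1303 ± 71.8 and 1203 ± 44.4 (−0.11, adjusted p = 0.942 by limma). Phkg1, a subunit of phosphorylase kinase, had 979 ± 55.1 and 897 ± 54.8 (−0.13).

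Regulators of the pathway divided into 12 higher and 17 lower means (median −0.012), with 0 of 29 called. Sirt1, an NAD-dependent deacetylase, had 527, 575, 493, 576 and 477 normalised counts in AAV8-GFP mice 1 to 5 and 593, 581, 625, 652 and 677 in AAV8-irisin mice 1 to 5. Every AAV8-irisin mouse was above every AAV8-GFP mouse, as in 0.803% of genes with no overlap in either direction, and the log2 difference was 0.24 ± 0.069 (standard error, adjusted p = 0.942 by limma). Prkaa2, a catalytic subunit of AMP-activated kinase, had 1243 ± 72.9 and 1336 ± 65.6 (0.11). Other hypoxia-induced genes had 7 higher and 9 lower means (median −0.017), with 0.066 for Bnip3 and −0.082 for Car12.

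Some values carry an uncertainty of assignment. Exons of 12 members (Hk1, Gpi1, Pfkm, Pfkp, Pfkfb2, Aldoa, Tpi1, Gapdh, Ldhd, Pdha1, Mpc1 and Slc16a7) overlap an exon of a gene on the opposite strand, and those of Pfkm, Pfkfb2 and Pkm one on their own strand. Stretches of at least 500 bases that are at least 95% identical to a transcript of another annotated gene were found for 11 members: Gpi1, Pfkp, Pfkfb2, Gapdh, Pgk1, Pgam1, Eno1, Pkm, Ldha, Ldhb and Pdhb. Gapdh had 73 such genes, of which 3 had values here, the highest with a mean of 212 against 59129 for Gapdh. For Pfkp and Pfkfb2 the matching gene is also one that overlaps their exons.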

How the data were processed

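Hippocampal RNA of 10 mice was sequenced after oligo(dT) capture, per the labels' protocols. The authors deposited a signal per gene and library that the file's name calls DESeq2 normalised counts. The submitters' processing notes name bcl2fastq 2.17, DESeq2 and mm10. No aligner, counter, annotation or strand setting is given in the sources used here, so overlapping genes cannot be told apart. Within a tolerance of 0.1, low values were whole multiples of the best single step of their library in only 49.1% to 71.6% of cases, so whole reads were not recovered, count tests were not run, and the depth in reads is not known.

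Genes reaching 10 in 5 or more libraries were tested with limma 3.58.1 in R 4.3.3 on log2(value + 1), with trend, two-sided, Benjamini-Hochberg threshold 0.05. This scale understates changes of low genes. Groups came from the labels, and titles name separate mice. Alternatives covered filters, pseudocounts, scaling, weights, variance model, a mouse-number block and each mouse left out, plus 1 added after seeing the data, the spread within groups without AAV8-GFP mouse 1. Positions and exons are those of GENCODE M21 (mm10), promoters those of RefSeq. The script was also checked on simulated data, which for limma took their means and spreads from these values. Members, lists and tests were chosen with earlier results of these data known. Named genes are all members, the 2 of smallest p of each pathway list and, of marker lists, the 2 of highest mean where values are given. The values of 1 gene under this rule are not reported here.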

Additional observations from a re-analysis of the deposited data

Results flagged for a closer look

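In 80 checks of 34 members and 6 ratios in 2 groups, 4 had a sample whose gap to its nearest neighbour took up more of the group's range than Dixon's 95% value for 5 samples, 0.710. Chance flags about 1 in 20 groups, and the checks share mice. All 4 fell on AAV8-GFP mouse 1. Gapdh was 64760 normalised counts there against 57201 to 59054 in the other 4 AAV8-GFP mice. Pgam1 was 16461 against 15518 to 15685. Mpc2, a subunit of the mitochondrial pyruvate carrier, was 2546 against 2120 to 2223. Pdha1 was low, at 7609 against 7966 to 8091.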

How the results depend on the processing

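No member was called under any of 18 alternatives, where the smallest adjusted p of a member was 0.794. The sign of the difference held in all of them for 20 of 34 members. Alternatives that change only the filter, the variance trend or the block leave the differences as they were, so no sign could turn there. Over all genes, the count called was 0 in the main test and in every alternative but 1. With no filter, 1 of 26538 genes passed, Gm49383, a predicted gene named after its values were seen, which was listed at 0 in all 5 AAV8-irisin mice and had 2.66 to 13.9 in AAV8-GFP. Leaving out each mouse gave 0 to 0. The planned count models were left out because whole reads could not be had. Signs turned with quantile normalisation for Pfkfb3 (−0.0100), Eno2 (0.0022), Pkm (0.0069) and Pdhb (−0.0028). They turned with array quality weights, where AAV8-GFP mouse 1 had the lowest weight, 0.346, for Pfkp (−0.016), Ldhd (0.019), Pdhb (−0.0089) and Dld (−0.00054). With a mouse left out, signs turned within ranges of −0.043 to 0.036 for Pfkp, −0.032 to 0.044 for Pfkfb3, −0.038 to 0.0071 for Gapdh, −0.0099 to 0.0097 for Pgk1, −0.024 to 0.00082 for Eno2, −0.045 to 0.033 for Ldhd, −0.0027 to 0.019 for Pdha1, −0.0066 to 0.012 for Pdhb, −0.014 to 0.035 for Dlat, −0.015 to 0.052 for Dld, −0.070 to 0.0035 for Mpc2, −0.021 to 0.22 for Slc16a7 and −0.0071 to 0.018 for Slc2a3. Among the ratios the ranges were −0.0030 to 0.021 for Ldha/Ldhb, −0.062 to 0.0053 for Aldoc/Aldoa, −0.095 to 0.015 for Hk2/Hk1, −0.020 to 0.067 for Pfkp/Pfkm. The causes were not tested.

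The values gave no sign that mouse numbers pair the samples: deviations of same-numbered mice had correlations of −0.0891 to 0.0297. Whether samples were paired in some other way was not tested. With the mouse number as a replicate block, 0 genes passed, and no member changed its call. An unadjusted p under 0.05 by limma was reached by 862 genes, against 788 without the block. The ratios could not be called under the block, because sign flips over 5 pairs cannot give a p under 0.05. The block cannot change a difference of group means, so that of the Eno1 to Eno2 ratio stayed at −0.053. With 5 mice a group, any change inside the 95% interval of a member remained compatible with its values. Only the intervals of Pfkl and Gpi1 left out 0, before adjustment.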
